A study of Mus musculus with 6 samples.

Results

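The 10 genes Yap1, Wwtr1, Tead1, Tead2, Tead3, Tead4, Ctgf, Cyr61, Amotl2 and Lats2, which encode the YAP-TEAD pathway and some of its best known targets, were read out of a table of 41327 genes by their symbols. All 10 had a row, and 9 passed the filter on low counts and were tested. Tead2 did not pass. The table holds 6 RNA-seq libraries of ID8, an immortalized epithelial line from the ovarian surface epithelium of C57BL/6 mice, grown asynchronously and left untreated. The groups are 3 libraries with the genotype Trp53-/- (Trp53_KO) and 3 with Trp53+/+ (Trp53_WT), so that the loss of the tumour suppressor p53 is the only labelled difference. The labels do not say whether the 3 libraries of a group came from separate cultures or clones, and p-values therefore reflect only how far these libraries spread, which may be technical variation. How the alleles were made is not given in the sources used here.

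YAP (from Yap1) and TAZ (from Wwtr1) are transcriptional co-activators that bind no DNA themselves. They enter the nucleus and act through the TEAD family of DNA-binding factors. The Hippo kinases, a chain in which MST kinases activate LATS kinases, phosphorylate YAP and TAZ and so hold them in the cytoplasm. In epithelia this control responds to cell density, junctions and tension on the actin cytoskeleton. Much of the control acts on the proteins, which RNA counts do not measure. Ctgf and Cyr61, also called Ccn2 and Ccn1, encode secreted matricellular proteins and are classical targets. Amotl2, an angiomotin that retains YAP at junctions, and Lats2, a kinase that inactivates YAP, are targets that act back on the pathway.

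The base sequence shared by TEAD sites, GGAATG or CATTCC on the other strand, was searched in RefSeq promoter windows of 300 bases (250 before to 50 after the start site, GRCm38.p6), to show where the genes of the set carry it. Windows were found for 7 of the 10 genes, 11 windows in all, and 8 of these windows, from 6 genes, held the letters. No window was found for Ctgf, Tead1 or Tead4. Windows of 1 gene can overlap, and both windows of Wwtr1 held the same match, so the windows are not independent. Among all 32851 windows 14.7% held the letters. The stretches of 30 bases around one match in each of the 6 genes are given on the strand of the gene, with the matching letters in capitals.
Yap1: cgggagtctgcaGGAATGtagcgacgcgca
Wwtr1: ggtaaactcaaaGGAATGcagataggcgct
Tead3: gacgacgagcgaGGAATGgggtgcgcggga
Cyr61: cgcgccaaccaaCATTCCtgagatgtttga
Amotl2: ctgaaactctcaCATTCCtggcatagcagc
Lats2: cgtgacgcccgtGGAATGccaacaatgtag
The matches lie on chr9:8004732-8004737 (Yap1), chr3:57576041-57576046 (Wwtr1), chr17:28350982-28350987 (Tead3), chr3:145650083-145650088 (Cyr61), chr9:102717739-102717744 (Amotl2) and chr14:57746114-57746119 (Lats2). The match of Cyr61 begins 103 bases before its start site and that of Wwtr1 136 bases before the outer of its 2 annotated start sites, whereas that of Lats2 begins at base 5 of the transcript. Tead2 had a window without the letters. None of the 11 windows held TGANTCA, the letters bound by AP-1, or a CArG box, the element bound by SRF, on either strand, against 7.81% and 1.63% of all windows. A match is a stretch of letters and not a measured binding site.

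For 2 genes that changed in opposite directions, the 250 bases before the start site are given, again 5′ to 3′ on the strand of the gene and with the TEAD letters in capitals. The stretch of Wwtr1, which was higher in Trp53_KO, is chr3:57575911-57576160 on the minus strand, and the stretch of Cyr61, which was lower, is chr3:145649986-145650235 on the minus strand. Neither contains an annotated exon of its gene.
Wwtr1: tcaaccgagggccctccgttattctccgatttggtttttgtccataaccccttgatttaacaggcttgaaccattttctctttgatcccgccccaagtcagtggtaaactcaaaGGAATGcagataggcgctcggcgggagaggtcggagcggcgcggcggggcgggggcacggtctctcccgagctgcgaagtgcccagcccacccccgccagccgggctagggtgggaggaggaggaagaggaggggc
Cyr61: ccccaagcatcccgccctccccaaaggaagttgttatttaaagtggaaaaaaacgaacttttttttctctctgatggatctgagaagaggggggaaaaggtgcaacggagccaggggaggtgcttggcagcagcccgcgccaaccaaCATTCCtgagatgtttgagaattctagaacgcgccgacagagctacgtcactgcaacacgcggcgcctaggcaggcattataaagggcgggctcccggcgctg
Both stretches hold a single copy of the letters. Both genes are among those listed above with a match, so this cannot show whether the letters go with a direction of change. Such a relation was not tested.

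Total counts ranged from 15319956 to 19954170 per library, and levels are given as CPM, that is, TMM-scaled counts relative to library size, with replicates in the order 1, 2, 3. Trp53 itself was at 25.3 to 29.6 CPM in Trp53_KO and 97.3 to 110 CPM in Trp53_WT, in the direction of the labels. Trp53_WT replicate 1 stood apart from the other libraries of its group. Compared with replicates 2 and 3, its counts gave a chi-square per degree of freedom of 29.98 and 29.4, against 2.11 between replicates 2 and 3 and 4.61 to 9.58 within Trp53_KO. Results are therefore also given without it where they depend on it. Markers of the ovarian surface epithelium were all detected. Their summed level was 3830 to 4090 CPM in Trp53_KO and 3560 to 3660 CPM in Trp53_WT. Of these 10 markers 5 were called higher and 4 lower in Trp53_KO (edgeR, adjusted p under 0.05), where 30.3% of all tested genes were called. The similar sums thus do not mean that single markers were unchanged. The immune markers Cd3e and Adgre1, the endothelial markers Cdh5, Kdr and Emcn, the granulosa markers Foxl2, Cyp19a1 and Fshr and the fibroblast marker Lum had no count in any library. The 5 immune markers summed to at most 0.297 CPM. The 5 fibroblast markers summed to 229 to 251 CPM in Trp53_KO against 101 to 108 CPM in Trp53_WT, the 5 endothelial markers to 1.65 to 2.35 against 0.148 to 0.203 CPM, and the 5 granulosa markers to 3.62 to 4.73 against 2.31 to 2.43 CPM. Their part in the results was not tested, and in bulk RNA fewer cells of a type and less RNA per cell cannot be told apart.

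The main comparison asked whether RNA of the pathway differed between the genotypes. In Trp53_KO, Wwtr1 and Amotl2 were higher, and Tead4 and Cyr61 were lower (quasi-likelihood test of edgeR, with a threshold of 0.05 on p adjusted by Benjamini-Hochberg over all 13651 tested genes). The other 5 tested genes, Yap1, Tead1, Tead3, Ctgf and Lats2, did not pass. All called changes were below 1.5-fold. Called genes were thus 4 of 9, where 30.3% of all tested genes were called, 14.1% as higher and 16.1% as lower. The median log2 fold change was -0.18 over the 9 genes and -0.02 over all tested genes. No overlap between groups was seen in 8 of the 9 genes, and in 46.0% of all tested genes. Without Trp53_WT replicate 1, Tead1 and Lats2 were also called as higher, which gave 6 of 9, where 35.9% of all tested genes were called.

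**Figure D1:**
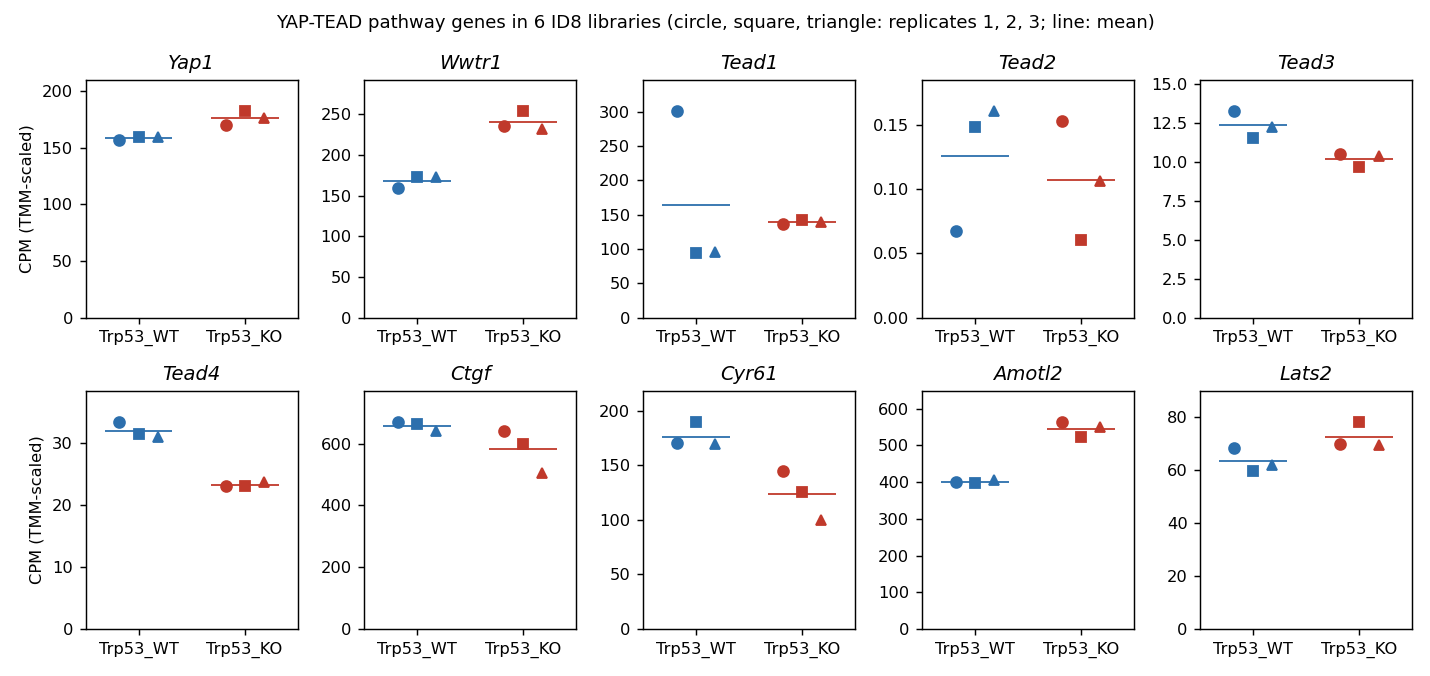
Level of each of the 10 genes in each library. The vertical axis gives TMM-scaled CPM and starts at 0, points are libraries (circle, square and triangle for replicates 1, 2 and 3) and lines are group means. Wwtr1 and Amotl2 lie higher in every Trp53_KO library, Tead4 and Cyr61 lie lower, and Tead1 has a single Trp53_WT library at 302 CPM above all others.

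Of the co-activators, Wwtr1 (chromosome 3, 57455649 to 57575910, GRCm38) rose and Yap1 (chromosome 9, 7931999 to 8004596) did not pass. In Trp53_KO the libraries held Wwtr1 at 235, 255 and 232 CPM, and in Trp53_WT at 160, 173 and 173 CPM. Every Trp53_KO library lay above every Trp53_WT library, and the gap between the groups was wider than the range within either. Mean levels were 240.5 ± 12.3 CPM and 168 ± 7.6 CPM (SD, n = 3 libraries), which gave a log2 fold change of 0.51 ± 0.07 (SE; edgeR, Benjamini-Hochberg adjusted p = 2.7e-04), or 1.43-fold.

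Yap1 was at 170, 183 and 176 CPM in Trp53_KO and at 157, 159 and 159 CPM in Trp53_WT. The groups did not overlap, but the difference was small, with a log2 fold change of 0.15 ± 0.06 (SE; edgeR, Benjamini-Hochberg adjusted p = 0.076). Per kilobase of exon, which allows levels of different genes to be compared, Yap1 was below Wwtr1 in every library. The ratio of Yap1 to Wwtr1 per kilobase was 0.374, 0.371 and 0.393 in the Trp53_KO libraries, against 0.508, 0.476 and 0.476 in those of Trp53_WT. It was lower in each Trp53_KO library than in any Trp53_WT library. Its size depended on the length used, since with the longest annotated transcript in place of all exons the mean ratio was 0.653 in Trp53_KO and 0.838 in Trp53_WT. The summed level of both co-activator RNAs was 67.5 to 73.0 CPM per kilobase in Trp53_KO and 50.4 to 53.4 in Trp53_WT.

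Of the DNA-binding partners, only Tead4 passed the test with all libraries. Tead4 (chromosome 6, 128224288 to 128300823) fell, from 33.4, 31.5 and 31.0 CPM in the Trp53_WT libraries to 23.1, 23 and 23.7 CPM in those of Trp53_KO. The 3 Trp53_KO libraries lay within 1 CPM of each other and below every Trp53_WT library. The log2 fold change was -0.46 ± 0.07 (SE; edgeR, Benjamini-Hochberg adjusted p = 0.0013), or 0.728-fold. Tead3 (chromosome 17, 28331671 to 28350817) was at 10.6, 9.66 and 10.4 CPM in Trp53_KO and 13.3, 11.5 and 12.3 CPM in Trp53_WT. Its groups did not overlap either, but it did not pass, with a log2 fold change of -0.27 ± 0.10 (SE; edgeR, Benjamini-Hochberg adjusted p = 0.075). Tead2 (chromosome 7, 45215753 to 45233644) was near the limit of detection, with 3, 1 and 2 counts in Trp53_KO and 1, 3 and 3 in Trp53_WT. The ratio of its 6 to 7 counts, scaled for library size, was 0.837 with an exact 95% interval of 0.232 to 2.91, which covers counting error only. A difference of Tead2 was not detectable at this depth.

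Tead1 (chromosome 7, 112679318 to 112906807) turned on a single library. The Trp53_KO libraries held it at 136, 142 and 139 CPM, those of Trp53_WT at 302, 94.4 and 95.1 CPM. The Trp53_KO values therefore lay between Trp53_WT replicate 1 and the other Trp53_WT libraries. With all libraries the log2 fold change was -0.23 ± 0.38 (SE; edgeR, Benjamini-Hochberg adjusted p = 0.69). When Trp53_WT replicate 1 was left out, Tead1 rose by 0.55 ± 0.06 (SE; edgeR, Benjamini-Hochberg adjusted p = 1.7e-06, where the alternatives gave 1.7e-06 to 0.998), so that both the call and the direction depended on that library. Without Trp53_WT replicate 2 or 3 it was -0.49 each and not called.

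**Figure D2:**
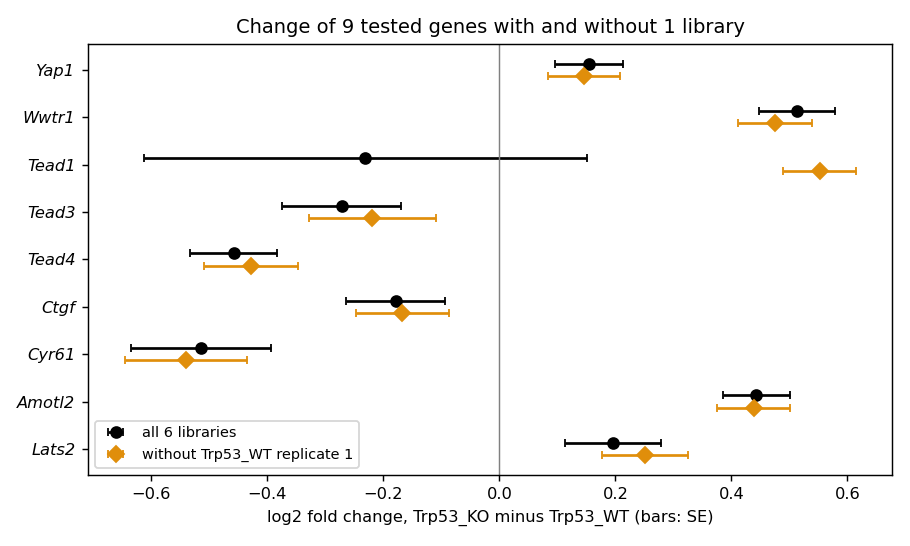
Log2 fold change, Trp53_KO minus Trp53_WT, of the 9 tested genes with all 6 libraries (black circles) and without Trp53_WT replicate 1 (orange diamonds), with bars for the SE. Only Tead1 moves across 0, from -0.23 to 0.55, and its SE shrinks from 0.38 to 0.06.

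In Trp53_WT replicate 1 Tead1 was 3.19 times the mean of the other Trp53_WT libraries, while the other 8 tested genes of the set lay between 0.924 and 1.12 times. Among 10335 tested genes with a mean of at least 5 CPM, 37 genes (0.358%) were more than 3 times higher in that library, none were more than 3 times lower, and Tead1 was at rank 30. On both sides of Tead1, the 6 other genes within 1 Mb and above the same level were at 0.919 (Usp47), 1.51 (Mical2), 1.41 (Parva), 0.809 (Arntl), 0.796 (Btbd10) and 0.950 (Far1) times. The high level was thus larger at Tead1 than at these neighbours. The library also held more reads of rows related to ribosomal RNA, which were looked at after the values of Tead1 were seen. Rn18s-rs5 was at 170 CPM there, against 39.6 and 35.8 CPM in the other Trp53_WT libraries and 19.6 to 29.3 CPM in Trp53_KO. Its part in the level of Tead1 was not tested.

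**Figure D3:**
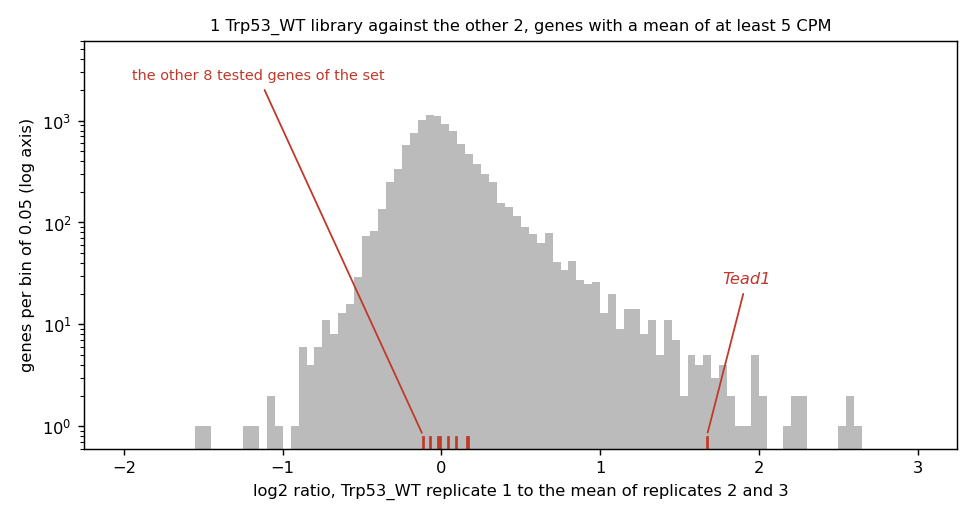
Ratio of Trp53_WT replicate 1 to the mean of Trp53_WT replicates 2 and 3, on a log2 axis, for 10335 tested genes with a mean of at least 5 CPM (grey histogram, log vertical axis), with red ticks for the tested genes of the set. Tead1 lies in the upper tail at a ratio of 3.19, and the other 8 lie near the centre.

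Per kilobase of exon, Tead1 and Tead4 made up most TEAD RNA in every library. In the Trp53_KO libraries Tead1 held 55.6%, 57.1% and 55.7% of the summed TEAD level and Tead4 held 35.5%, 34.9% and 35.8%. In Trp53_WT replicates 2 and 3 Tead4 was the more abundant, with 50.2% and 49.3%, and Tead1 held 39.8% and 40.1%. This order held with either length, by less with the longest transcript, but not without division by length. With the longest transcript as the length, Tead4 was at 10.1 to 10.2 and Tead1 at 9.47 to 9.54 CPM per kilobase in these libraries. Without division by length Tead1 was above Tead4 there, at 94.4 and 95.1 against 31.5 and 31.0 CPM. In Trp53_WT replicate 1 Tead1 held 66.4% and Tead4 27.7%. Per kilobase of exon, the order of Tead1 and Tead4 in Trp53_WT thus differed between its libraries, and it was the same in all 3 Trp53_KO libraries. Tead3 held 5.91% to 10.5% and Tead2 at most 0.192% in any library. The summed level was 18 to 18.4 CPM per kilobase in Trp53_KO, 17.5 in both of Trp53_WT replicates 2 and 3, and 33.5 in Trp53_WT replicate 1.

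**Figure D4:**
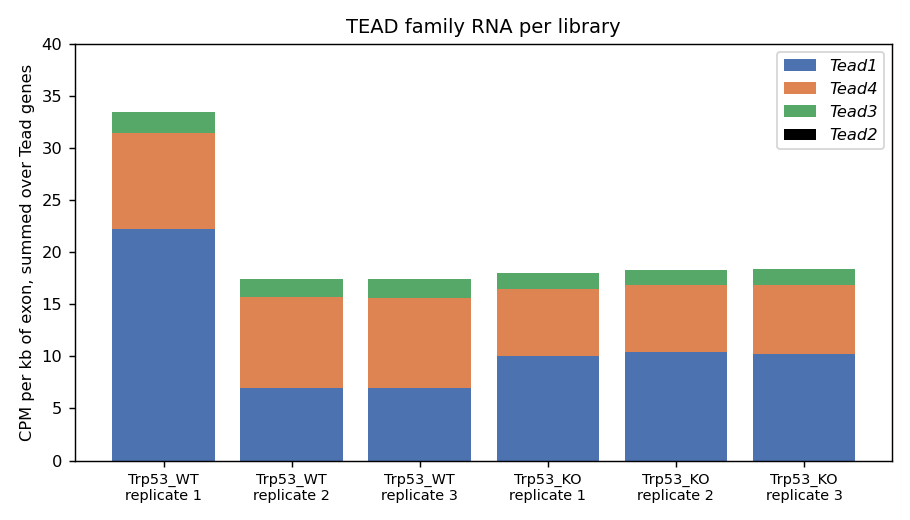
TEAD family RNA in each library as CPM per kilobase of exon, stacked by gene, with the axis from 0. Trp53_WT replicate 1 reaches 33.5 through Tead1, and the other 5 libraries lie between 17.5 and 18.4 with more Tead1 and less Tead4 in Trp53_KO than in Trp53_WT replicates 2 and 3.

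Of the classical targets in the set, Cyr61 fell and Ctgf did not pass. Cyr61 (chromosome 3, 145646976 to 145649981) measured 145, 126 and 99.9 CPM in the Trp53_KO libraries, against 170, 190 and 169 CPM in those of Trp53_WT. The groups did not overlap, although Trp53_KO spread widely. Mean levels were 124 ± 22.5 CPM and 176 ± 11.4 CPM (SD, n = 3 libraries), which gave a log2 fold change of -0.51 ± 0.12 (SE; edgeR, Benjamini-Hochberg adjusted p = 0.0099). Ctgf (chromosome 10, 24595442 to 24598683) was at 640, 599 and 506 CPM in Trp53_KO and 670, 663 and 642 CPM in Trp53_WT. The highest Trp53_KO library almost reached the lowest Trp53_WT library, and the log2 fold change of -0.18 ± 0.09 did not pass (SE; edgeR, Benjamini-Hochberg adjusted p = 0.15). Both genes were lowest in Trp53_KO replicate 3. Without it the log2 fold change was -0.38 for Cyr61, which was still called (edgeR, Benjamini-Hochberg adjusted p = 0.020, where the alternatives gave 6.9e-06 to 0.038), and -0.09 for Ctgf.

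Of the targets that feed back on the pathway, Amotl2 rose and Lats2 did not pass. Amotl2 (chromosome 9, 102716672 to 102733418) measured 563, 522 and 550 CPM in the Trp53_KO libraries, against 399, 398 and 406 CPM in those of Trp53_WT. All Trp53_KO libraries were higher by more than the spread within either group. The log2 fold change was 0.44 ± 0.06 (SE; edgeR, Benjamini-Hochberg adjusted p = 3.1e-04), or 1.36-fold. Lats2 (chromosome 14, 57689662 to 57758388) was at 69.9, 78.2 and 69.6 CPM in Trp53_KO and 68.5, 59.8 and 61.9 CPM in Trp53_WT. Trp53_WT replicate 1 came within about 1 CPM of the lowest Trp53_KO library. The gene did not pass, with a log2 fold change of 0.20 ± 0.08 (SE; edgeR, Benjamini-Hochberg adjusted p = 0.11). With Trp53_WT replicate 1 left out, Lats2 rose by 0.25 and passed (edgeR, Benjamini-Hochberg adjusted p = 0.014, where the alternatives gave 0.014 to 0.27). In the annotation a gene on the same strand, Gm49361, overlaps Lats2 and has no row under that symbol. Some genes in the counts carry clone names, so a row under another name is possible. Whether reads of the pair were counted together is therefore not known. Yap1, Wwtr1, Tead1, Tead4, Ctgf and Lats2 overlap annotated antisense genes that have no row under their symbols either. Tead2 overlaps Cd37 on the other strand, with 11 counts. Whether the counting used strand is not stated, so reads of such partners cannot be told apart.

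Set in order per kilobase of exon, Ctgf led in both groups, at 203 ± 23.9 CPM per kilobase in Trp53_KO and 230 ± 5.1 in Trp53_WT (SD, n = 3). The order of Amotl2 and Cyr61 depended on the length used. With all exons of a gene as its length, in Trp53_KO Amotl2 was at 83.0 to 89.6 and Cyr61 at 49.5 to 71.7, whereas in Trp53_WT Cyr61 was at 83.8 to 93.9 and Amotl2 at 63.3 to 64.5 CPM per kilobase. With the longest transcript as the length, Amotl2 was at 118 to 127 in Trp53_KO, above Cyr61, and at 89.9 to 91.7 in Trp53_WT, inside the range of Cyr61. Wwtr1 followed at 50.3 in Trp53_KO, inside the range of Cyr61, and at 35.2 in Trp53_WT. Yap1 came next at 19.1 and 17.1. Lats2 and Tead1 overlapped in Trp53_KO, at 10.4 and 10.2. In Trp53_WT Lats2 was at 9.09 and Tead1 at 12.1, and the ranges overlapped only through Trp53_WT replicate 1. Without it Tead1 was at 6.98, below every value of Lats2 and Tead4. In Trp53_WT Tead4, at 8.88, overlapped Lats2 as well, and in Trp53_KO it lay below at 6.46. Tead3 (1.52 and 1.84) and Tead2 (0.0223 and 0.0262) were lowest.

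The wider pathway was described with lists chosen by function, with earlier results of these data known. The shares called in them are therefore descriptions. Of 19 tested Hippo kinases and their activators, 2 were higher, 4 were lower and 13 were not called (edgeR, adjusted p under 0.05), near the share of all genes, with a median log2 fold change of -0.03. Frmd6, a FERM-domain protein that activates the kinase chain, fell from 87.4 ± 11.3 to 59.8 ± 0.91 CPM (SD, n = 3), a log2 fold change of -0.55. Sav1, the scaffold of the MST kinases, and the kinase genes Taok3 and Map4k5 fell with log2 fold changes of -0.32, -0.47 and -0.33. Stk4, which encodes the kinase MST1, and Map4k3 rose with 0.25 and 0.27. Lats1, which encodes the other LATS kinase and was named after its values were seen, was at 144 CPM in Trp53_KO and 129 CPM in Trp53_WT and was called only without Trp53_WT replicate 1, where it rose by 0.23 (edgeR, Benjamini-Hochberg adjusted p = 0.019). Without that library Stk3, another kinase gene of the list, was called as lower and Wwc1 as higher. Their log2 fold changes were -0.28 and 0.21 (edgeR, Benjamini-Hochberg adjusted p = 0.0060 and 0.034). The count moved with the libraries used, to 2 genes without Trp53_KO replicate 1, 3 without Trp53_WT replicate 3 and 9 without Trp53_WT replicate 1. The share called among all tested genes moved the same way, to 21.5%, 24.9% and 35.9%. Without Trp53_KO replicate 1 the calls of Stk4, Sav1, Map4k3 and Map4k5 were lost (edgeR, Benjamini-Hochberg adjusted p = 0.080, 0.052, 0.059 and 0.097). Stk4, Map4k3 and Map4k5 also lost them without Trp53_WT replicate 2 (0.098, 0.11 and 0.070) or replicate 3 (0.069, 0.083 and 0.069). Stk4 and Map4k3 lost them without Trp53_KO replicate 2 (0.072 and 0.073), and Map4k3 and Map4k5 without Trp53_KO replicate 3 (0.071 and 0.056).

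Of 18 genes of cofactors and junction regulators, 13 were tested, 3 were higher and 3 were lower, or 46.2% called against 30.3% of all tested genes, and the median log2 fold change was -0.11. The other angiomotins rose like Amotl2. Amot went from 1.62, 1.24 and 1.02 CPM in Trp53_WT to 6.37, 6.82 and 5.90 CPM in Trp53_KO, a log2 fold change of 2.32 ± 0.18 (SE; edgeR, Benjamini-Hochberg adjusted p = 9.1e-06). Amotl1 rose from 100.3 ± 3.5 to 142 ± 1.2 CPM (SD, n = 3), a log2 fold change of 0.50. Every Trp53_KO library lay above every Trp53_WT library for these angiomotin genes. Tjp1, the junction protein ZO-1, fell with a log2 fold change of -0.27. Fat1, an atypical cadherin, fell with -0.58, and Vgll3, a cofactor that competes for TEAD proteins, fell from 4.58 CPM in Trp53_WT to 1.86 CPM, or by 1.29 on the log2 scale. Tjp1 lost its call without any 1 of the Trp53_KO libraries (edgeR, Benjamini-Hochberg adjusted p between 0.065 and 0.11, where all alternatives gave 0.013 to 0.11). Vgll1, Wtip and Fat4 had no count, and Vgll2 and Dchs1 were too low to test.

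**Figure D5:**
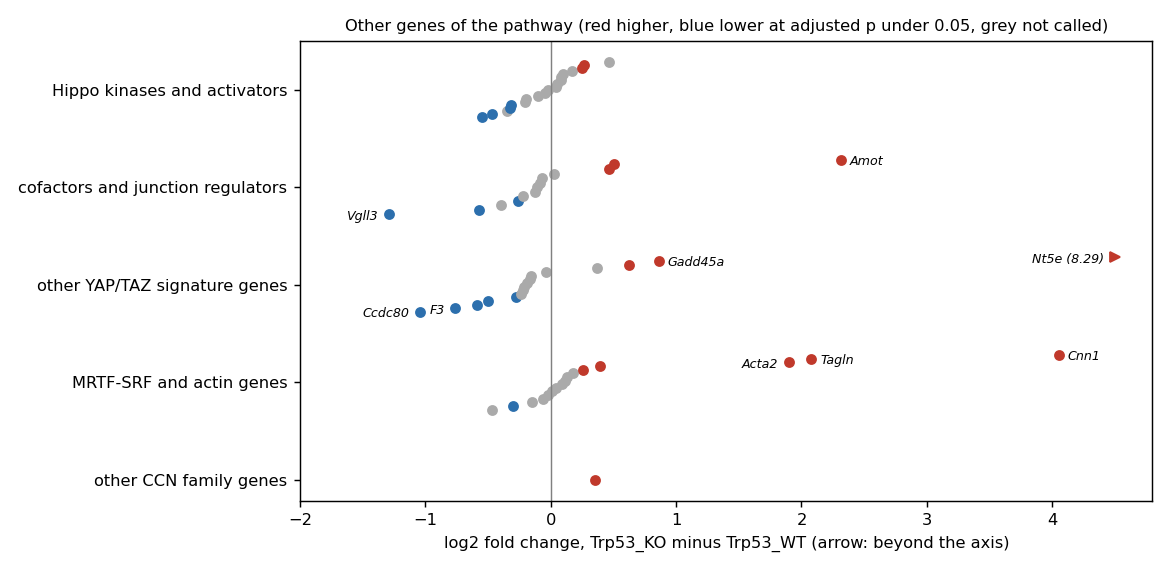
Log2 fold change, Trp53_KO minus Trp53_WT, of each tested gene in the 5 lists of the wider pathway, with 1 point per gene in red (higher), blue (lower) or grey (not called) at an adjusted p of 0.05. Each of the 4 larger lists has genes on both sides of 0. The widest changes are the rises of Amot, Nt5e, Cnn1, Tagln and Acta2, and the widest falls are those of Vgll3 (-1.29) and Ccdc80 (-1.04).

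A list of 18 further genes often used as a YAP and TAZ target signature went both ways. Of 16 tested genes, 3 were higher, 5 were lower and 8 were not called, where 30.3% of all tested genes were called, and the median log2 fold change was -0.20 against -0.02 over all tested genes. Ccdc80, a matrix protein, fell from 59.5 ± 4.0 to 28.96 ± 2.4 CPM, F3, the coagulation initiator tissue factor, from 54.0 ± 3.9 to 31.8 ± 2.3 CPM, and Myof, the membrane repair protein myoferlin, from 920 ± 58.2 to 613 ± 25.8 CPM (SD, n = 3). Tgfb2, a TGF-beta ligand, fell from 70.0 to 49.5 CPM. Gadd45a, a stress response gene that p53 also regulates, rose with a log2 fold change of 0.86. For Nt5e, which encodes an enzyme of the cell surface that makes adenosine, 439 counts in Trp53_KO stood against 1 in Trp53_WT. The scaled ratio was 429, and its exact 95% counting interval ran from 76.5 to 17000. Ankrd1, a nuclear ankyrin repeat protein and another classical target, named here after its values were seen, rose from 242 CPM in Trp53_WT to 373 CPM, which is a log2 fold change of 0.62 ± 0.12 (SE; edgeR, Benjamini-Hochberg adjusted p = 0.0026). The classical targets therefore split, with Ankrd1 higher, Cyr61 lower and Ctgf not called.

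Genes of the actin cytoskeleton and of the MRTF-SRF factors were included because SRF also drives Ctgf and Cyr61. Of 16 tested genes 5 were higher, 1 was lower and 10 were not called, or 37.5% called against 30.3% of all tested genes, with a median log2 fold change of 0.10. Tagln, the smooth muscle protein transgelin, rose from 2.77, 4.2 and 4.02 CPM in Trp53_WT to 15.8, 18.1 and 13.2 CPM in Trp53_KO, or by 2.08 ± 0.17 (SE; edgeR, Benjamini-Hochberg adjusted p = 1.5e-05). The summed fibroblast markers given above were higher in the same libraries, and their part in this was not tested. Acta2, smooth muscle actin, had 47 counts against 12 and Cnn1, calponin, 57 against 3, and both were called as higher. The ratio for Cnn1 was 18.6 with an exact 95% counting interval of 6.04 to 92.6. Of abundant actin-binding genes, Zyx and Csrp1 rose by 0.26 and 0.39, and Flna, filamin A, fell by 0.30 on the log2 scale. Zyx lost its call without Trp53_KO replicate 1 or 3 and Csrp1 without Trp53_KO replicate 1 or 2 (edgeR, Benjamini-Hochberg adjusted p = 0.078, 0.059, 0.055 and 0.054 in that order). Srf itself, also named after its values were seen, was at 62.7 CPM in Trp53_KO and 57.4 CPM in Trp53_WT and not called. Of the other CCN genes, relatives of Ctgf and Cyr61, only Wisp1 was high enough to test, and it rose from 597 ± 20.5 to 761 ± 39.95 CPM (SD, n = 3), or by 0.35 on the log2 scale. Wisp3 had no count, and Nov and Wisp2 had at most 3 counts over all libraries. Trp53_WT replicate 1 was the highest of the 6 libraries for 4 of 9 genes of the set, 9 of 16 signature genes, 7 of 13 cofactor and junction genes, 6 of 19 Hippo kinases and activators and 4 of 16 actin genes, against 26.7% of all tested genes.

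A second readout at the same loci came from the authors' deposited table of repeats. It lists for each repeat locus and read direction its change in log2 units and an FDR (false discovery rate), with no value per library. It is of the same comparison, Trp53_KO against Trp53_WT, and is not taken as independent of the gene counts. In that authors' deposited table, 986 rows lay in one of the 10 genes or within 10 kb of it, and 2 of them (0.203%) had an FDR under 0.05, where 0.672% of all 773731 rows did. Both were intronic, read in the direction of the gene, and lower in Trp53_KO. One was an MIR3 element in Tead4 (chromosome 6, 128297941 to 128298033), with a log2 fold change of -1.63 and an FDR of 0.031 in the authors' deposited table. The other was a PB1D10 element in Lats2 (chromosome 14, 57717729 to 57717834), at -4.60 with an FDR of 0.034 in the authors' deposited table. Lats2 as a gene was not lower, as given above.

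Most of these rows were intronic repeats read in the direction of the gene, so their values describe intronic RNA of the same genes. In the authors' deposited table the median log2 fold change over such rows was -0.69 for Tead4, where 29 of 136 rows were above 0, and -0.52 for Tead3, where 6 of 22 were. It was 0.15 for Wwtr1 (114 of 188 above 0), 0.18 for Tead1 (167 of 256), 0.00 for Yap1 (53 of 104) and -0.02 for Lats2 (41 of 83) in the authors' deposited table. Over 510842 such rows of all genes in the authors' deposited table the median was 0.00, and 50.3% were above 0. Intronic rows of Tead4 and Wwtr1 thus lay on the same side as the gene counts. Those of Tead1 lay above 0, on the side of its gene counts without Trp53_WT replicate 1 and not on that with all libraries. Rows of one gene share its transcripts and are not independent, and their depth is unknown, so no test was made.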

How the data were processed

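Per the labels' protocols, libraries keeping strand were prepared from DNase-treated total RNA. STAR, featureCounts and edgeR were used with mm10, per the submitters' processing notes. Versions, settings and use of strand are not stated there. The authors deposited raw counts per gene symbol and, for repeats, a table of log2 fold changes and FDR values (adjusted p-values). That the authors' deposited fold changes are log2 was checked against gene counts: over 622 exonic rows of changed genes the median ratio to the gene's own log2 fold change was 1.03 (0.693 for natural logarithms). Read direction was taken from the suffix of each row, which matched the gene's strand for 88.0% of 38905 such rows.

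Counts were fitted with edgeR 4.0.16 in R 4.3.3 (filterByExpr, TMM, quasi-likelihood test with genotype as the only term, all 6 libraries), with Benjamini-Hochberg adjustment of p-values over 13651 tested genes at 0.05. SE is the absolute log2 fold change over the square root of F. The fit was tested on simulated data. Exon lengths and coordinates came from GENCODE M21 on GRCm38, where Ctgf and Cyr61 are Ccn2 and Ccn1, and sequences came from RefSeq. The genes of the set and all lists were chosen with earlier results of these data known. The genes named were all 10, Trp53 and up to 6 per list with the lowest adjusted p, of which some are not reported here. Alternatives were other size factors, filters, DESeq2 1.42.0, limma-voom (limma 3.58.1), a replicate block and each library left out. No library pair agreed within sampling noise.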

Additional observations from a re-analysis of the deposited data

How the results depend on the processing

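The 4 calls among the 10 genes (Wwtr1, Amotl2, Tead4 and Cyr61) held in direction and at the 0.05 threshold under all alternatives, and leaving out 1 library gave 2 to 4 higher genes, 4 being without Trp53_WT replicate 1. Tead1 turned positive without Trp53_WT replicate 1 (0.55), with the replicate number as a block (0.0012, edgeR, Benjamini-Hochberg adjusted p = 0.998) and in limma-voom (0.016). Leaving out 1 library gave 2 to 9 called Hippo kinases and activators. Tead1 ranged from -0.49 to 0.55 over the libraries left out. Without division by length Tead1 held a mean of 80.6% of TEAD counts in Trp53_KO and 74.6% in Trp53_WT. The Trp53_WT mean includes replicate 1, with Tead1 at 302 CPM against 94.4 and 95.1 CPM in replicates 2 and 3. These means are therefore not a plain difference between the genotypes. The ratio of Yap1 to Wwtr1 without division by length was 0.734 in Trp53_KO and 0.942 in Trp53_WT. With the longest transcript as the length that ratio was 0.653 and 0.838. It was lower in Trp53_KO under each choice. Called repeat rows at the 10 genes numbered 4 of 1433 within 50 kb and 0 of 986 at an FDR under 0.01.

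Correlations cannot decide whether the replicate numbers pair the libraries, with 3 libraries per group and Trp53_WT replicate 1 apart from its group. The deviations of same-numbered libraries correlated at -0.053, 0.077 and -0.122, and only replicate 2 of each group correlated best with its own number. With the replicate block 3806 genes were called against 4130, and Stk4 and Map4k3 lost their calls (adjusted p = 0.058 and 0.059). Over 35 single genes and 453 refits, 426 kept their direction and side of the threshold, 23 lost a call, 1 gained it and 3 reversed. Of these genes 30 were called in the main fit, and those from the lists were picked by lowest adjusted p. The share that held is therefore not that of all tested genes. Counts of Tead2 are too few for any statement on its change.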

Other observations

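Ctgf, Cyr61 and Ankrd1 were each at their lowest Trp53_KO level in the same library. Trp53_KO replicate 3 was the lowest of the 3 Trp53_KO libraries for 8 of 16 tested signature genes, 8 of 16 tested actin genes, 4 of 9 tested genes of the set, 5 of 19 Hippo kinases and activators and 3 of 13 cofactor and junction genes, against 34.0% of all tested genes. Ctgf and Cyr61 were among them, as was Ankrd1, at 388, 419 and 311 CPM in replicates 1, 2 and 3. Wwtr1 and Lats2, the others of the set, were lowest there by little. They were at 232 and 69.6 CPM in Trp53_KO replicate 3, against 235 and 69.9 CPM in Trp53_KO replicate 1. The shares of the Hippo list (26.3%) and of the cofactor and junction list (23.1%) were below that of all tested genes. These shares are descriptions of 1 library and were looked at after the values of Ctgf and Cyr61 were seen.

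Dlg5, a scaffold protein of cell junctions, was also high in Trp53_WT replicate 1. It was at 131 CPM in Trp53_WT replicate 1, 65.8 and 67.2 CPM in the other Trp53_WT libraries and 59.5 to 75 CPM in Trp53_KO. It was named after its values were seen and was not called with all libraries (log2 fold change -0.40; edgeR, Benjamini-Hochberg adjusted p = 0.24). With that Trp53_WT library left out Dlg5 was not called either, at 0.00 (edgeR, Benjamini-Hochberg adjusted p = 0.99).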
